A study of Mus musculus with 56 samples.

Results

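The activity-induced immediate early genes are genes whose transcription rises within minutes of neuronal firing. A set of 31 of them was taken by symbol from the 18088 genes of the deposited expression table, and all 31 passed the filter on low values (at least 10 in at least 4 libraries), as did 17778 genes in all. They comprised 16 transcription factors, 4 synaptic effectors, 6 inhibitors or regulators of signalling and 5 regulators of growth arrest, stress or nuclear function. The libraries came from the prefrontal cortex of C57BL/6J mice that were heterozygous for Scn2a (HT, 29 libraries) or wild type (WT, 27 libraries). Scn2a encodes a voltage-gated sodium channel of neurons. Pups of both sexes (27 females, 29 males) received fluoxetine, an antidepressant that blocks serotonin reuptake, lithium, a mood stabiliser, or vehicle through their mothers' milk from postnatal day 3 to 24 and were analysed on day 25. Each of the 12 groups of genotype, treatment and sex held 5 libraries, except that 4 were available for the fluoxetine females of either genotype, for WT females given lithium and for WT males given vehicle. The labels give no dose, litter, dam, batch or time of dissection. Because treatment went through the dam, littermates may be among the pups of a group, in which case the p-values of the drug comparisons are too small.

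Calcium entry through NMDA receptors and voltage-gated channels activates kinases that phosphorylate CREB and the ternary complex of SRF and ELK factors on promoters that are already poised. The induced transcription factors of the FOS and JUN, EGR, NR4A and NPAS4 families then switch on later genes, the synaptic effectors act at synapses, and the DUSP phosphatases, SIK1 and other inhibitors shut the signalling down again. In the cortex the RNA of many of them is short-lived, and its level in tissue then reflects the period shortly before collection.

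The depth recovered from the values was 24.3 to 36.4 M reads per library. Scn2a itself was at 7583 to 9619 in HT and 9727 to 13381 in WT libraries, and the genotypes did not overlap. Of the 56 libraries, 18 were rich in markers of the olfactory bulb (Eomes, Cdhr1 and 12 others) or the striatum (Drd1, Drd2 and 11 others), 2 regions that adjoin the prefrontal cortex, with a marker score over 1, the score being the mean log2 value after subtracting each marker's median over libraries. They were 6 of 18 fluoxetine, 6 of 19 lithium and 6 of 19 vehicle libraries, 10 of 27 female and 8 of 29 male, and 11 of 29 HT and 7 of 27 WT. No marker of the cortical excitatory or inhibitory neuron, olfactory, striatal, glial, vascular or blood lists was at 0 throughout.

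Promoter sequences are shown because the members' values moved together between libraries (below) and CREB is a shared activator of such genes. RefSeq windows on GRCm38.p6, covering the 250 bases before each start site, were matched for 24 of the 31 members. The CREB site, TGACGTCA, was found in 2 of 24 (8.33%), Btg2 (166 to 159 bases before the start) and Dusp1 (143 to 136 bases before it), against 1.55% of the 32851 windows in the table. Its shorter core, TGACG, which reads CGTCA on the other strand and which any full site also contains, was found in 14 of 24 (58.3%), against 17.8% of all windows. Windows were not matched for CG content, and both motifs hold a CG. The CArG box bound by SRF was found in 1 window, that of Dusp5, with 2 sites 82 to 63 bases before the start (4.17% against 1.47% of all windows). The AP-1 site, TGANTCA, was found in 0 of 24, against 6.75% of all windows. A match is a sequence and not a measured binding site. Sites farther than 250 bases before the start, and those of members without a matched window, Egr1 among them, were not searched. Each line reads 5′ to 3′ along the gene's strand, and capitals mark cores or the full site. Fos is shown with Junb, the member with a core whose values followed Fos most closely, Egr4 and Nr4a2 as members with several cores, Btg2 as a member with a full site, and Ptgs2 as the member that passed a test. The windows were Fos at chr12:85473640-85473889 on the plus strand, Junb at chr8:84978749-84978998 on the minus strand, Egr4 at chr6:85513590-85513839 on the minus strand, Nr4a2 at chr2:57124004-57124253 on the minus strand, Btg2 at chr1:134079156-134079405 on the minus strand and Ptgs2 at chr1:150099781-150100030 on the plus strand.
Fos: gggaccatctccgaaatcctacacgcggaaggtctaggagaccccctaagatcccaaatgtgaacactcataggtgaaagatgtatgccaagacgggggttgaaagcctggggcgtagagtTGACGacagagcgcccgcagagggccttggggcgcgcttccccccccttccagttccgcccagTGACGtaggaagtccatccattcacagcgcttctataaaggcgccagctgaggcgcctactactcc
Junb: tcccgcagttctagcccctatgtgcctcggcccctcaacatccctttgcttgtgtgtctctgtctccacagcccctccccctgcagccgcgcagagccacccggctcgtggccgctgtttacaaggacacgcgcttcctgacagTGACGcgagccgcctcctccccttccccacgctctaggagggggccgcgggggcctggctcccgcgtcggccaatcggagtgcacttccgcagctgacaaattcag
Egr4: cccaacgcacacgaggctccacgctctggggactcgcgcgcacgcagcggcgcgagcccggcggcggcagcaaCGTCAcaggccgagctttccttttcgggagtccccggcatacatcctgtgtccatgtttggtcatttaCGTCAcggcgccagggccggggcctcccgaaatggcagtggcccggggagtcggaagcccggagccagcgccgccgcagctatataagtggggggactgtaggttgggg
Nr4a2: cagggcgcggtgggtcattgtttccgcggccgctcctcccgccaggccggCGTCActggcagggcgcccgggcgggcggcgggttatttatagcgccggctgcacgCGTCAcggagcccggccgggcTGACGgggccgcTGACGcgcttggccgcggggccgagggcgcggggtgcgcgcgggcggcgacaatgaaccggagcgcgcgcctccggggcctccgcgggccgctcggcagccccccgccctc
Btg2: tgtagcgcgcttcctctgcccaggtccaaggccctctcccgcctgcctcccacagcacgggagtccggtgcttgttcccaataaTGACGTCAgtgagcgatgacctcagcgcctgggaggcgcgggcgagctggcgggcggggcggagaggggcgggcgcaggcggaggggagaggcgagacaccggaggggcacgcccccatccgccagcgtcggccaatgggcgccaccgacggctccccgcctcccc
Ptgs2: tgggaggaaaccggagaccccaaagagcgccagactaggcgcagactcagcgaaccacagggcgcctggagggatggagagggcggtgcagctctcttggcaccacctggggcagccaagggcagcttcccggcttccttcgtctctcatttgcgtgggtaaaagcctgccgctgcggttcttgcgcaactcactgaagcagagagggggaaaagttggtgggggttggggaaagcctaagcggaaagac

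Fos and Egr4 each hold 2 cores, Junb 1 and Nr4a2 4, Btg2 holds the full site, and Ptgs2 holds none. Members with and without a core overlapped in how closely they followed Fos between libraries, a measure described below. The 13 members with a core other than Fos had a median correlation with Fos of 0.72 (0.41 to 0.91), and the 10 without one had 0.70 (0.22 to 0.95). These are descriptions of the windows with no test.

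Expression values are read counts scaled by a size factor for each library. Per kilobase of exon, the highest mean levels were those of Egr1, a zinc finger transcription factor, at 1989, and Arc, which removes AMPA receptors from synapses, at 1795. Egr3 followed at 989 and Nr4a1, a nuclear receptor, at 768, and Fos was eleventh of 31 at 426. Homer1 stood at 552, but its value sums the constitutive long forms and the induced short form, which a value per gene cannot separate. The lowest were Maff at 12.5 and Atf3 at 14.3, so both rest on few reads. The same scale put Npas4, a factor induced by calcium entry into neurons, at 185, Btg2, an antiproliferative regulator, at 180 and Ier2, a nuclear regulator, at 167. These neighbours in the order differed by less than their spread over libraries.

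Fluoxetine was compared with vehicle over both genotypes, with the sexes weighted equally. No member passed the test (limma, adjusted p under 0.05 over 17778 genes), against 0.928% of all genes tested, and edgeR on the recovered reads called 0 as well. At an unadjusted p under 0.05 there were 13 of 31 members in limma (10 lower and 3 higher under fluoxetine) and 12 in edgeR, against 14.0% of all genes in limma. Since members follow each other between libraries (below), these are not 13 separate observations. The difference was below 0 in 19 members and above 0 in 12, with a median of -0.08 on the log2 scale against 0.00 over all genes. Without the 18 marker-rich libraries 20 were below and 11 above 0, 8 had an unadjusted p under 0.05 and none was called. Of the endothelial and pericyte markers 9 of 10 were lower under fluoxetine (median -0.06, 5 at an unadjusted p under 0.05), and their part in the members' differences was not tested.

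Among the regulators of growth arrest and nuclear function, all 5 differences were below 0. Ier2 ran from 127 to 453 (median 226) in 18 fluoxetine libraries and from 217 to 349 (median 274) in 19 vehicle libraries. Of the fluoxetine libraries 14 lay below the mean of the vehicle libraries of their genotype and sex, yet the ranges overlapped. WT fluoxetine male 1 was the highest of all. The log2 difference was -0.38 (95% interval -0.58 to -0.17, adjusted p = 0.0557). Btg2, which restrains cell division and is on chromosome 1 (134075170 to 134079120), ran from 230 to 919 (median 393) under fluoxetine and from 335 to 751 (median 522) under vehicle. It lay below the vehicle mean in 15 of 18 libraries, with a log2 difference of -0.44 (-0.70 to -0.19, adjusted p = 0.0693). Both adjusted p-values lie close to the threshold, and whether the calls are made depends on single libraries and on the model. Without WT fluoxetine male 1, the high library, the adjusted p was 0.0107 for Ier2 and 0.0138 for Btg2, the lowest of all single omissions. Leaving out each library in turn called Ier2 in 9 of 56 fits and Btg2 in 4 of 56. The highest adjusted p in these fits was 0.107 for Ier2 and 0.128 for Btg2. Under the alternative settings it reached 0.169 for Ier2 and 0.18 for Btg2.

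The transcription factors split, with 9 differences below 0 and 7 above. Junb, a JUN family partner of FOS, ran from 639 to 2301 (median 1300) under fluoxetine and from 999 to 2322 (median 1678) under vehicle, with a log2 difference of -0.40 (SE 0.14, adjusted p = 0.145). Fos ran from 375 to 1674 (median 870) against 413 to 1600 (median 880), so the medians hardly differed while the log2 difference was -0.37 (-0.74 to -0.01, adjusted p = 0.339). Its mean in females was 596 against 1031 under vehicle in HT and 600 against 995 in WT. In males it was 1121 against 1084 in HT and 1042 against 1081 in WT. The sex by fluoxetine interaction of Fos, given below, did not pass. Nr4a1 ran from 1164 to 4427 (median 2292) against 1765 to 3847 (median 2715). Its log2 difference was -0.28 (SE 0.14, adjusted p = 0.358). Fosb and Egr1 were near 0, at 0.04 (-0.33 to 0.40) and 0.01 (-0.21 to 0.22). Maff, a small MAF factor without an activation domain, had the highest difference of the 31, at 0.37 (SE 0.12, adjusted p = 0.105), from values of 22.7 to 51.2 against 15.9 to 35.0. In each of these genes the treated and vehicle ranges overlapped.

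Of the synaptic effectors, Arc ran from 1623 to 10498 (median 3924) under fluoxetine and from 2614 to 8178 (median 5279) under vehicle. Its log2 difference was -0.40 (-0.83 to 0.03, adjusted p = 0.401). Homer1, which links glutamate receptors to intracellular calcium stores, was on the other side, at 0.25 (0.02 to 0.47, adjusted p = 0.306). Nptx2, a secreted pentraxin that clusters AMPA receptors, had a difference of 0.08 (-0.01 to 0.17), and Ptgs2, the inducible cyclooxygenase COX-2, had 0.14 (0.04 to 0.25, adjusted p = 0.19). Among the signalling inhibitors, Dusp1, a phosphatase that inactivates MAP kinases, ran from 349 to 1388 (median 630) against 568 to 963 (median 850). Its log2 difference was -0.33 (-0.59 to -0.08, adjusted p = 0.198), with 13 of 18 libraries below the vehicle mean of their genotype and sex.

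Within the genotypes no member passed either, where 0.146% of genes did in WT and 0.045% in HT. At an unadjusted p under 0.05 limma had 6 members in WT and 5 in HT, and edgeR 5 and 4. The share of all genes at that level in limma was 10.9% in WT and 8.56% in HT. Npas4 (chromosome 19, 4984355 to 4990316) had the smallest p in WT and ranked 31 of all genes. In the 4 WT fluoxetine females it was at 526, 410, 313 and 381, and in the 5 WT vehicle females at 828, 848, 1106, 753 and 825, so these groups did not overlap. In the 5 WT fluoxetine males it was at 943, 865, 409, 968 and 455, and in the 4 WT vehicle males at 1047, 651, 1119 and 834, with overlap. The log2 difference in WT was -0.75 (-1.10 to -0.40, adjusted p = 0.0556), a percent difference of -40.5. In HT it was 0.03 (-0.32 to 0.37, adjusted p = 0.986).

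The difference between those values was tested as the genotype by fluoxetine interaction and did not pass, at 0.77 (0.28 to 1.26, adjusted p = 0.812). In that interaction 0 of 31 members and 0% of all genes were called. Npas4 was the only member with an unadjusted p under 0.05 there in limma, and edgeR likewise had 1 and called 0. Among all genes 5.44% were at that level in limma. In HT fluoxetine, Gadd45b, a DNA damage and demethylation regulator, had the smallest p, with a log2 difference of -0.27 (-0.45 to -0.08, adjusted p = 0.452). It ran from 206 to 294 (median 257) in 9 HT fluoxetine libraries and from 254 to 349 (median 323) in 10 HT vehicle libraries.

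**Figure D1:**
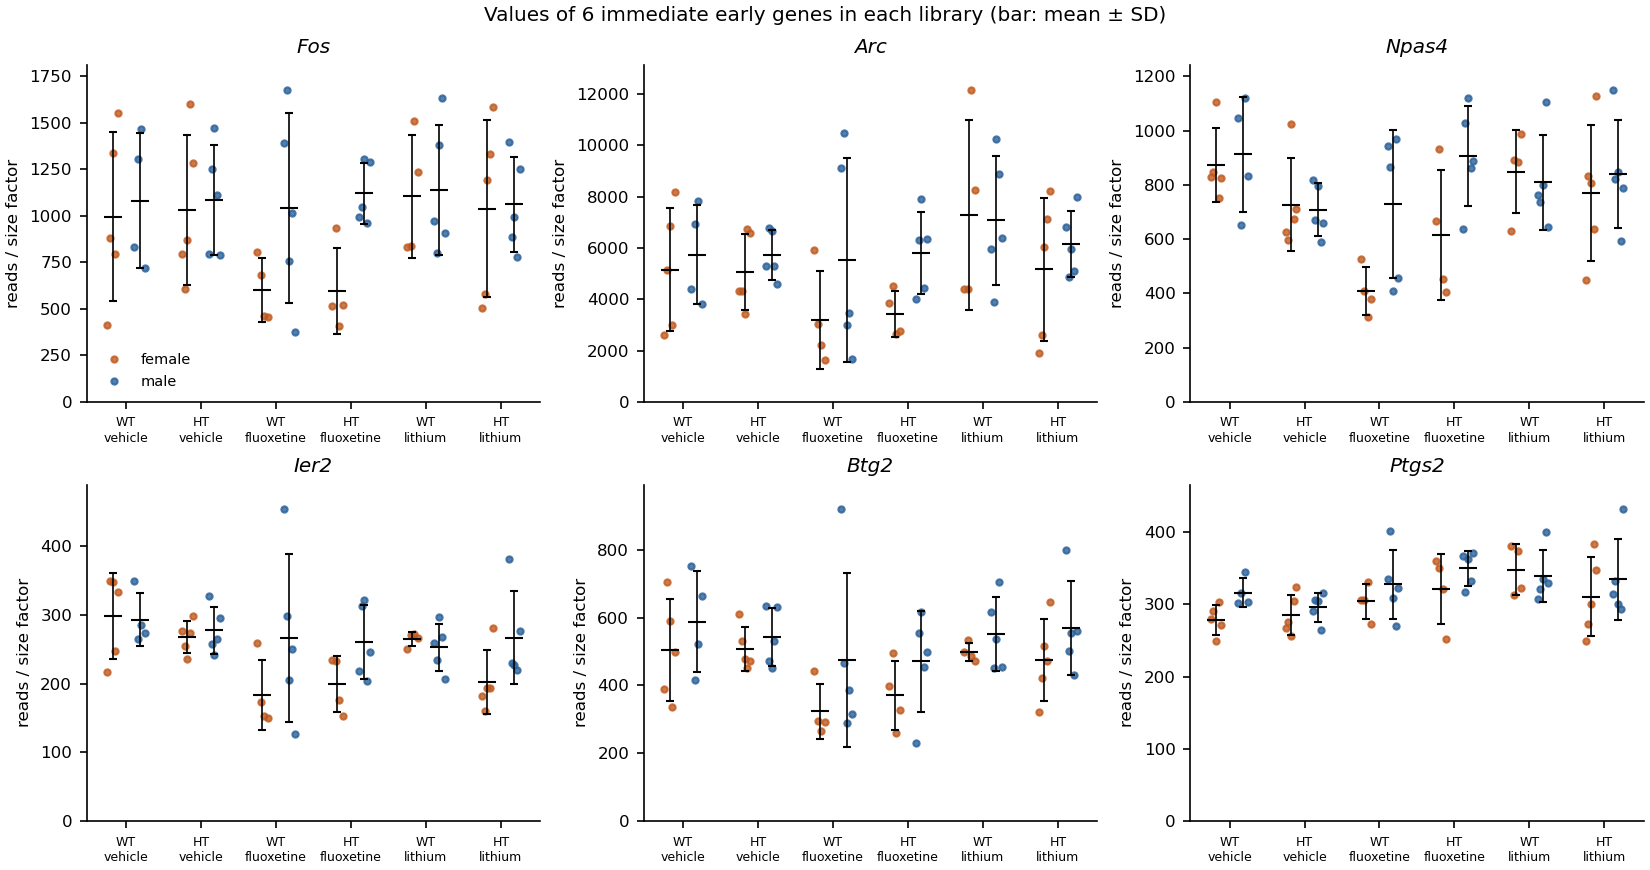
Reads divided by size factor (vertical axis, linear from 0) in each library for 6 immediate early genes, by genotype and treatment (horizontal axis) with females and males side by side; bars give the mean ± SD of 4 or 5 libraries. Npas4 is at 313 to 526 in WT fluoxetine females and 753 to 1106 in WT vehicle females, while the Fos values of nearly all groups overlap.

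Lithium was compared with the same vehicle libraries, so the lithium and fluoxetine differences share their controls. Ptgs2 was the only member to pass over both genotypes, which is 1 of 31 (3.23%) where 16.2% of all genes passed (9.31% higher and 6.85% lower). A share below the background says nothing particular about the members. The difference was above 0 in 26 members and below 0 in 5, with a median of 0.10 against 0.00 over all genes. At an unadjusted p under 0.05 there were 5 members, against 29.4% of all genes. Without the 18 marker-rich libraries 20 were above and 11 below 0, and 1 had an unadjusted p under 0.05.

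Ptgs2 (chromosome 1, 150100031 to 150108227) makes prostaglandins and is induced by synaptic activity in cortical pyramidal neurons. In 19 lithium libraries it ran from 249 to 431 (median 323), and in 19 vehicle libraries from 249 to 345 (median 302). Of the lithium libraries 15 lay above the vehicle mean of their genotype and sex, although the ranges overlapped. It rose by 12.6%, a log2 change of 0.17 (0.07 to 0.28, adjusted p = 0.019), and edgeR gave an adjusted p of 0.0183. In WT alone the difference was 0.21 (adjusted p = 0.0927) and in HT alone 0.14 (adjusted p = 0.247). The interaction was -0.07 (-0.28 to 0.14, adjusted p = 0.833). The call was kept when each of the 56 libraries was left out in turn (highest adjusted p 0.0361). It was lost without the 18 libraries rich in olfactory or striatal markers, at 0.12 (adjusted p = 0.285), where 38 libraries remained. The summed olfactory markers were at 4882 to 24735 (median 5608) under lithium and 5054 to 26104 (median 7095) under vehicle. With the olfactory and striatal marker scores as covariates Ptgs2 was still called, at an adjusted limma p of 0.0187. The part of the markers in the Ptgs2 result was not tested further. In bulk tissue, more cells with a transcript and more of it per cell cannot be told apart.

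Other members with an unadjusted p under 0.05 were Trib1, a pseudokinase that directs protein degradation (0.21, SE 0.085, adjusted p = 0.0864), Maff (0.23), Gadd45b (0.14) and Ier2 (-0.22, -0.42 to -0.01, adjusted p = 0.137). For Ier2, 16 of 19 lithium libraries were below the vehicle mean. Fos had a difference of 0.06 (-0.29 to 0.42) and Arc of 0.19 (-0.24 to 0.61). Intervals of this width hold both a fall and a rise of over 10%. In WT no member passed, where 5.71% of genes did, and in HT none where 8.77% did. The members with an unadjusted p under 0.05 numbered 3 in WT and 0 in HT in limma, and 1 and 2 in edgeR, which called 0 in both. In limma 21.4% of all genes in WT and 23.3% in HT were at that level. The smallest p in HT was that of Maff, at 0.30 (-0.01 to 0.61, adjusted p = 0.239). In the genotype by lithium interaction the difference was below 0 in 28 of 31 members, with a median of -0.11 against -0.01 over all genes. In edgeR 24 were below and 7 above 0. Members follow each other between libraries (below), so these signs are not separate observations. In the same interaction 14 of 14 olfactory markers were above 0 (median 0.61) and 13 of 13 striatal markers below 0 (median -0.34). With both marker scores as covariates 29 members were below and 2 above 0, with a median of -0.21. The part of the markers in it was not tested further. In this interaction 0 members and 0% of genes were called. Members at an unadjusted p under 0.05 numbered 0 in limma and in edgeR, against 10.9% of all genes in limma. Nptx2 had the smallest p, at -0.18 (-0.36 to 0.01, adjusted p = 0.467).

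**Figure D2:**
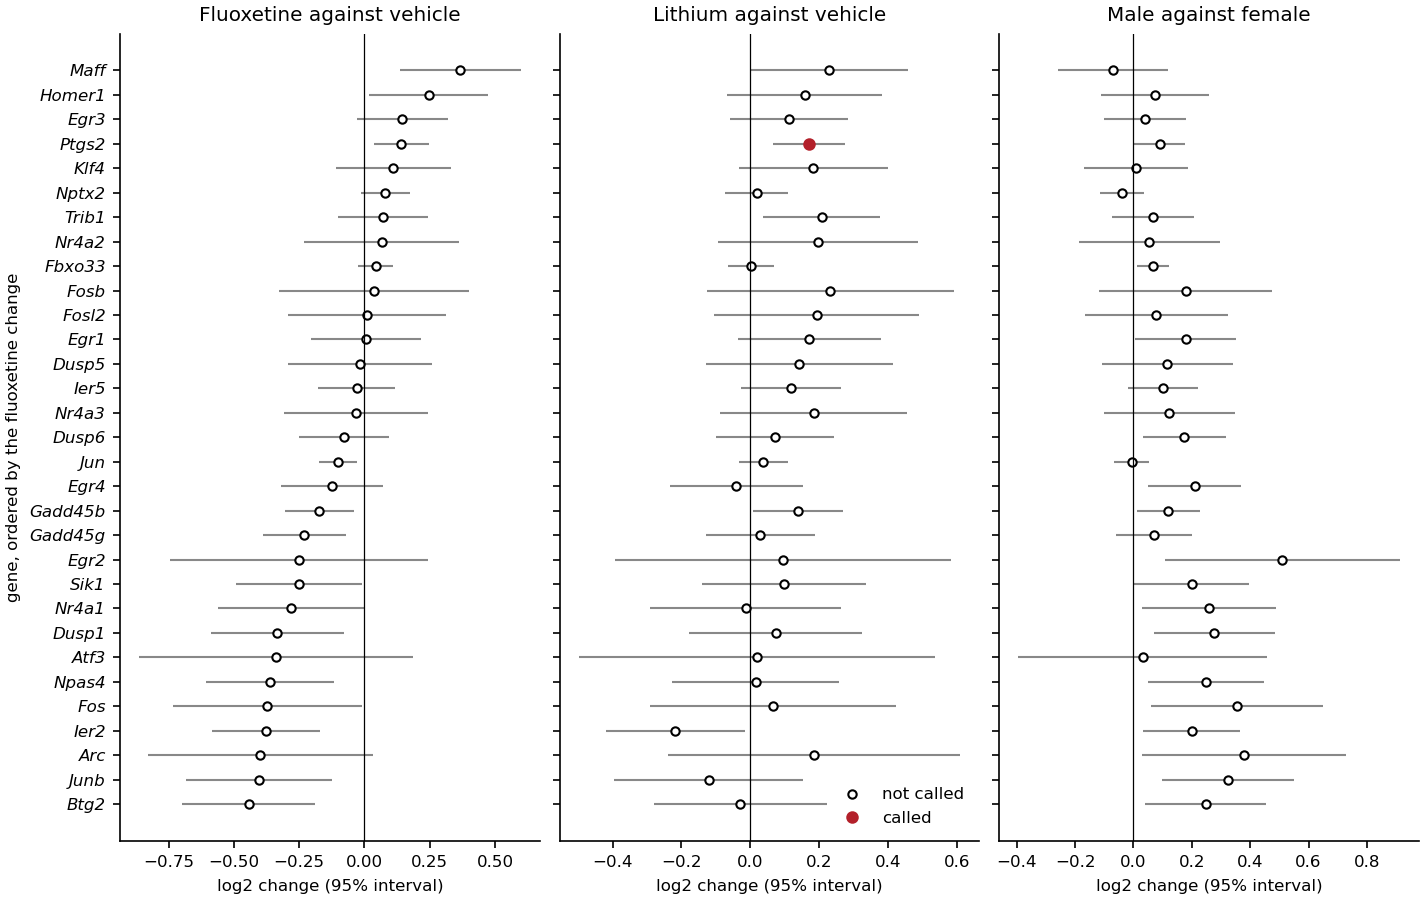
Log2 difference (horizontal axis) with its 95% interval for each of the 31 genes (vertical axis, ordered by the fluoxetine difference) under fluoxetine and lithium against the same vehicle libraries, and in males against females. The filled point is Ptgs2 under lithium, at 0.17, and open points did not pass the test.

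Between HT and WT no member passed the threshold in any comparison. Over all treatments 0 of 31 were called where 0.152% of genes were. Members at an unadjusted p under 0.05 numbered 0 in limma and in edgeR, against 8.08% of all genes in limma. The differences were below 0 in 19 and above 0 in 12, with a median of -0.01 against 0.00, and without the 18 marker-rich libraries 25 were below and 6 above 0. Fos differed by 0.01 (-0.28 to 0.31) and Arc by 0.00 (-0.35 to 0.35) between HT and WT. Klf4, a zinc finger factor, had the smallest p, at -0.18 (-0.35 to 0.00, adjusted p = 0.632), from 123 to 311 (median 218) in HT and 155 to 476 (median 235) in WT. In this comparison 10 of 10 endothelial and pericyte markers were lower in HT (median -0.09, 6 at an unadjusted p under 0.05, none called), and their part in it was not tested.

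Under vehicle 0 members were called where 0.00562% of genes were, and Nptx2 had the only unadjusted p under 0.05 (0.15, 0.02 to 0.28, adjusted p = 0.4). It ran from 1376 to 1923 in 10 HT and from 1289 to 1667 in 9 WT vehicle libraries. Under fluoxetine 0 were called where 0.0112% were, and Npas4 had the smallest p (0.46, 0.11 to 0.81, adjusted p = 0.9998), at 406 to 1121 (median 862) in HT and 313 to 968 (median 455) in WT. Under lithium 0 were called where 0.0337% were, and Fbxo33, a substrate receptor of a ubiquitin ligase, had the smallest p (-0.13, -0.23 to -0.04, adjusted p = 0.339). Unadjusted p-values under 0.05 numbered 1, 1 and 2 in limma and 1, 1 and 2 in edgeR, which called none. In limma 9.93%, 3.94% and 10.3% of all genes were at that level. The ranges of HT and WT overlapped in all 3 genes.

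Males were compared with females over all genotypes and treatments. Values were higher in males for 28 of 31 members, with a median log2 difference of 0.12 against 0.00 over all genes, yet none passed where 0.197% of genes did. At an unadjusted p under 0.05 there were 16 members, all higher in males, against 6.25% of all genes, and edgeR had 15 and called 0. Without the 18 marker-rich libraries 30 of 31 were higher in males, with a median of 0.21, 14 had an unadjusted p under 0.05 and none was called. Markers of other tissue and cells differed too: 13 of 14 olfactory markers were lower in males (median log2 difference -0.10), while 11 of 13 striatal markers (0.10) and 5 of 5 blood cell markers (0.13) were higher, and none was called. With the olfactory and striatal scores as covariates 28 of 31 members were higher in males (median 0.13). In that fit 15 had an unadjusted limma p under 0.05 and none was called. The part of the blood cell markers in the members' differences was not tested, and that of the others not further. Junb had the smallest p, at 0.32 (0.10 to 0.55, adjusted p = 0.56). It ran from 748 to 2322 (median 1343) in 27 females and from 639 to 2301 (median 1678) in 29 males. Egr2, which drives myelin genes in Schwann cells and is induced by activity in neurons, had the largest difference, at 0.51 (0.11 to 0.91, adjusted p = 0.694), from 98.9 to 696 (median 267) in females and 127 to 931 (median 364) in males. Fos, Junb, Nr4a1, Arc, Dusp1, Sik1 and Btg2 had a higher mean log2 value in males in all 6 groups of genotype and treatment. Without logs, the mean of Arc under lithium in WT was 7077 in males and 7301 in females. That of Sik1 under vehicle in WT was 582 in males and 586 in females. Jun, at -0.01 (-0.06 to 0.05), Nptx2, at -0.04, and Maff, at -0.07, were the 3 members not higher in males. Since the members follow each other between libraries, 28 differences of one sign are not 28 separate observations.

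The medians of the sexes lay farther apart under fluoxetine than under vehicle for Fos and Arc, without passing a test. Fos was at 410 to 937 (median 518) in 8 fluoxetine females and 375 to 1674 (median 1032) in 10 fluoxetine males, against 413 to 1600 (median 876) and 721 to 1473 (median 1110) in the vehicle sexes. By genotype, it was at 410 to 937 in HT fluoxetine females and 963 to 1307 in HT fluoxetine males, without overlap. In WT it was at 459 to 803 in fluoxetine females and 375 to 1674 in fluoxetine males, with overlap. Arc was at 1623 to 5926 (median 2902) in fluoxetine females and 1657 to 10498 (median 5386) in fluoxetine males, with overlap. The sex by fluoxetine interaction was above 0 in 25 of 31 members, with a median of 0.22 against 0.00 over all genes, and 0 members and 0% of genes were called. Markers of other cells moved further in it: 5 of 5 blood cell markers were above 0 (median 1.48, 5 at an unadjusted p under 0.05), as were 8 of 8 oligodendrocyte markers (0.44, 5 at that level) and 13 of 13 striatal markers (0.42, 0 at that level). With the olfactory and striatal scores as covariates 26 of 31 members were above 0 (median 0.16). The part of the blood cell and oligodendrocyte markers in the members' interaction was not tested, and that of the striatal markers not further. Of the members, only Npas4 had an unadjusted p under 0.05 in limma, at 0.68 (0.18 to 1.17, adjusted p = 0.457), and edgeR had 3 members and called 0. Among all genes 8.52% were at that level in limma. For Fos the interaction was 0.66 (-0.07 to 1.39, adjusted p = 0.615). In the sex by lithium interaction 0 members and 0% of genes were called, with 1 unadjusted p under 0.05 in both tools, that of Fbxo33 in limma (-0.18, -0.32 to -0.05, adjusted p = 0.687). The share of all genes at that level in limma was 7.16%.

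The members varied more between libraries of a group than most genes. Their residual SD on the log2 scale, after removing the 12 group means, exceeded the median of all genes (0.13) in 29 of 31, and this is a description with no test. Atf3, a stress-induced factor with few reads, had 0.82, Egr2 0.75, Arc 0.65, Fosb 0.55 and Fos 0.55. Fbxo33, at 0.10, and Jun, at 0.11, were the 2 below the median of all genes. Egr2 spanned 9.42-fold over the 56 libraries and Arc 7.48-fold, while Jun spanned 1.47-fold.

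This spread was shared. For each library the deviation of each member's log2 value from its group mean was taken, and that of Fos was correlated with those of the 30 other members over 56 libraries. Of the 30, 29 were positively correlated with Fos at an adjusted permutation p under 0.05, libraries being shuffled within groups 100000 times. The closest were Egr2 (Pearson r = 0.95, Spearman rho = 0.95), Junb (0.91 and 0.91), Arc (0.90 and 0.90), Nr4a1 (0.89 and 0.87) and Sik1 (0.88 and 0.88), a kinase that restrains CREB signalling. Each of these 5 had a permutation p of 1e-05, the smallest that the draws can give, and an adjusted p of 1.7e-05. The farthest were Fbxo33 (r = 0.22, rho = 0.17, adjusted p = 0.23), which did not pass, and Maff (0.37 and 0.32), Btg2 (0.41 and 0.38) and Klf4 (0.41 and 0.40), which did. Fosb, Egr1 and Dusp1 lay between, with r of 0.86, 0.85 and 0.72, as did Npas4 (0.56), Homer1 (0.51) and Nptx2 (0.51).

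The 2 libraries farthest from the median of Fos, WT fluoxetine male 5 and WT vehicle female 1, did not carry the relation. Without them r was 0.94 for Egr2, 0.90 for Junb and 0.89 for Arc. Without the 18 libraries rich in olfactory or striatal markers, 23 of 30 passed, and with both marker scores regressed out 27 did. Correlations of deviations carry no treatment difference, because group means were removed.

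**Figure D3:**
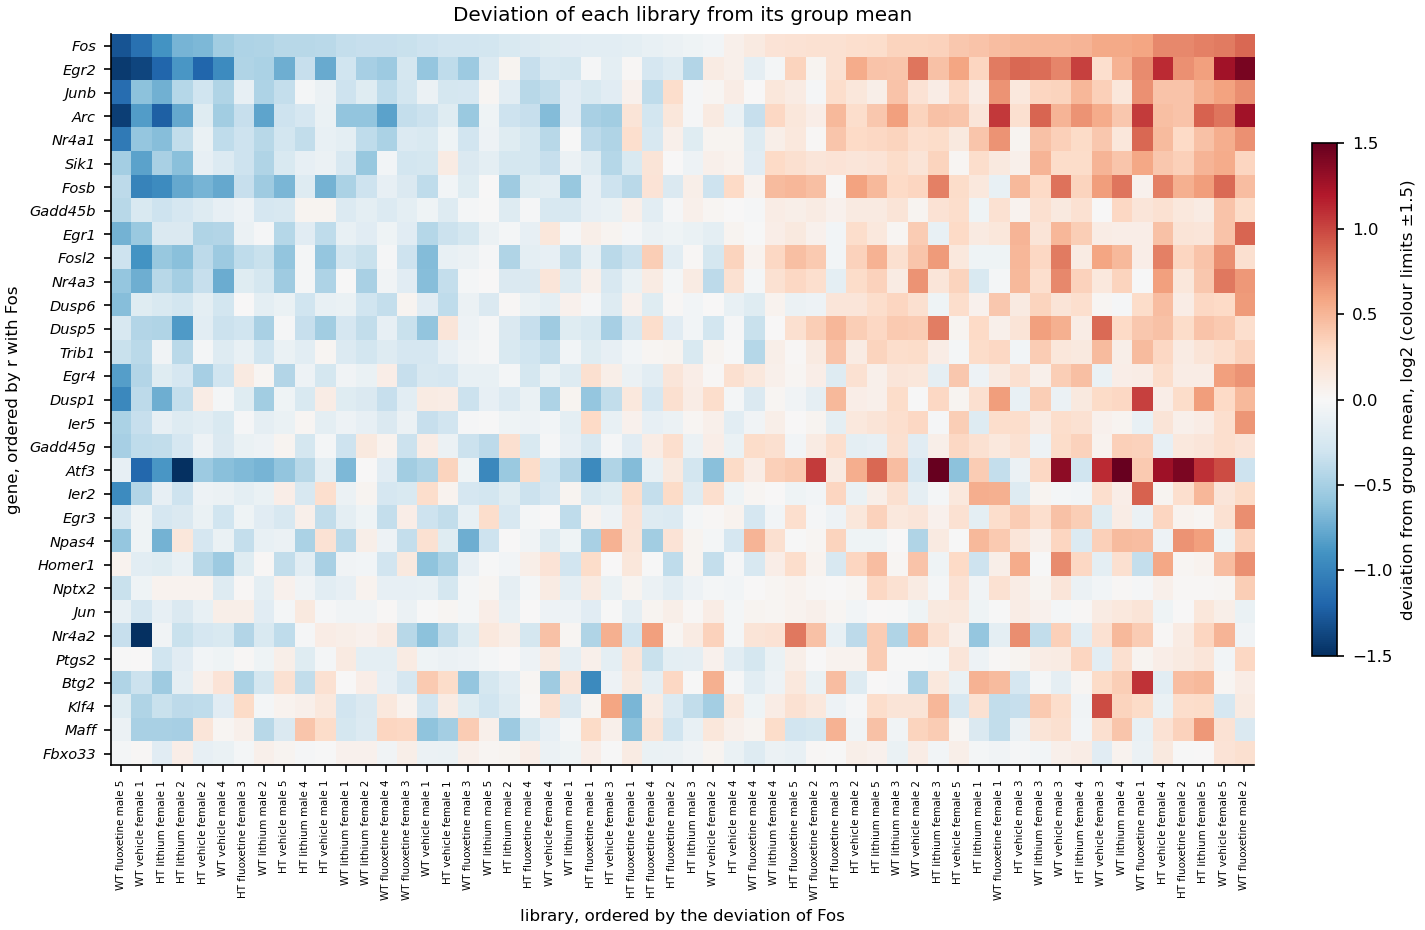
Deviation of each library from its group mean in log2 units (colour, limited to 1.5 in each direction) for the 31 genes (vertical axis, ordered by r with Fos) in the 56 libraries (horizontal axis, ordered by the deviation of Fos). Red on the right and blue on the left in most genes show that the members were high or low together; Fbxo33, in the lowest line, has r = 0.22.

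Single libraries stood out over nearly the whole set. In WT fluoxetine male 5, 30 of 31 members were below the group mean, with a mean deviation of -0.54, and in WT vehicle female 1, 29 were below, with -0.53. HT lithium female 1 had 30 below, with -0.45. At the other end WT fluoxetine male 2 had 27 above, with 0.43, WT vehicle female 5 had 28 above, with 0.41, and HT lithium female 5 had all 31 above, with 0.38. In 12 of 56 libraries at least 28 members lay on the same side, 5 above and 7 below. The highest and lowest libraries came from the same groups: in WT fluoxetine males Fos was at 1389, 1674, 756, 1016 and 375, and Arc at 9097, 10498, 2998, 3470 and 1657. The spread within that group alone covered the full range of Fos over the series. In the 5 libraries with at least 28 members above, olfactory marker scores were 1.45, 1.23, 1.01, 0.86 and 0.42. In the 7 with at least 28 below, they were 1.34, 0.82, 0.67, -0.61, -0.71, -0.72 and -1.02. Correlations with Fos after both marker scores were regressed out are given above. The part of the scores in the shared deviations was not tested further.

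Among the 465 pairs of members the median r was 0.49, with 447 pairs above 0 and 229 above 0.5, and the first principal component of the deviations held 53.5% of their variance and the second 14.0%. The second component ordered the members from Btg2, Ier2, Dusp1 and Npas4 at one end to Egr3, Fbxo33 and Homer1 at the other. Within the first end r was 0.81 between Btg2 and Dusp1, 0.78 between Btg2 and Ier2 and 0.85 between Ier2 and Dusp1. Across the ends it was -0.35 between Btg2 and Homer1, the lowest of all pairs, and -0.14 between Ier2 and Homer1. Fosb and Fosl2, FOS family members, formed the closest pair, at 0.96. These pairwise values describe 56 libraries and were not tested.

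**Figure D4:**
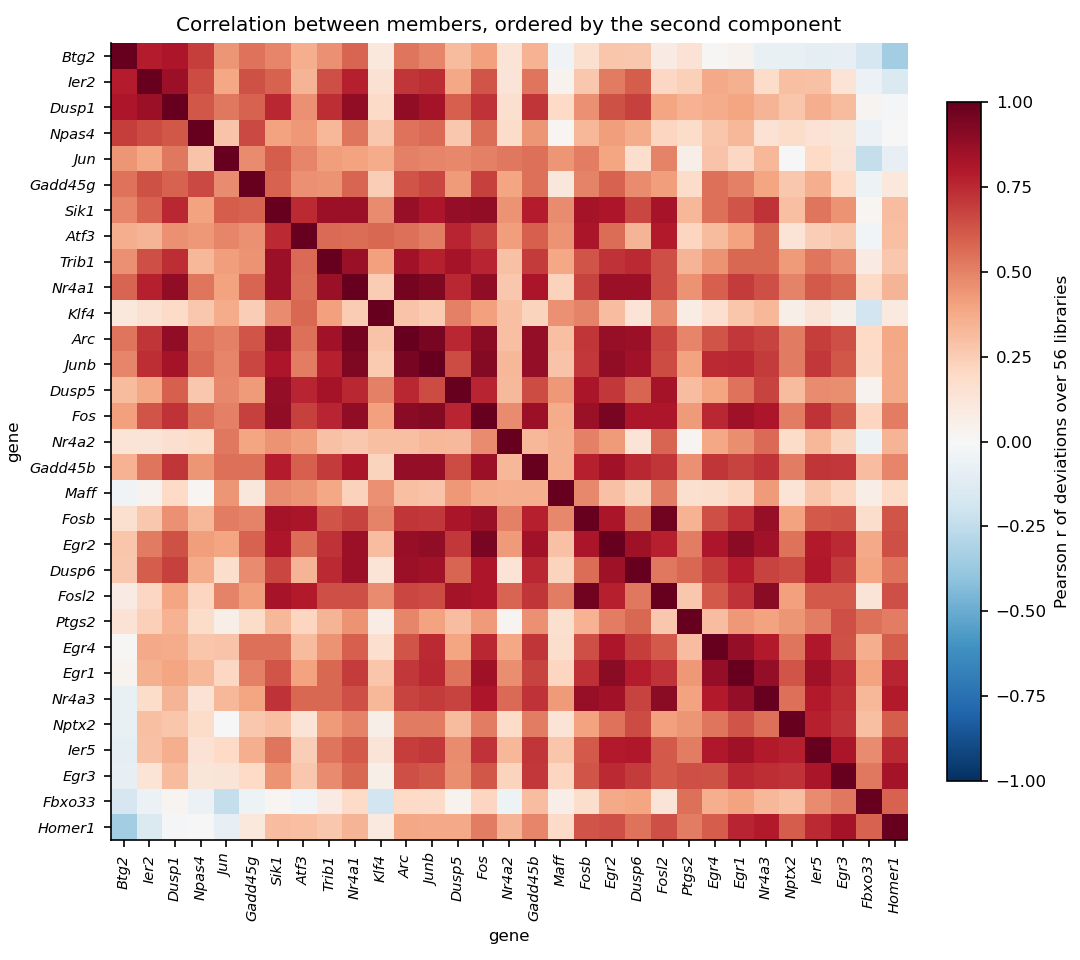
Pearson r between the deviations of each pair of the 31 genes over 56 libraries (colour, from -1 to 1), both axes in the order of the second principal component. Most pairs are positive, with a median of 0.49, and the palest or blue cells lie between the Btg2 end and the Homer1 end.

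Other genes of the response were taken from lists. Of 31 tested other rapid response genes (32 listed), 4 rose and 1 fell under lithium over both genotypes (16.1%, where 16.2% of all genes were called), and their median difference was 0.07. Sgk1, a kinase also induced by glucocorticoids, rose by 0.22 on the log2 scale (adjusted p = 0.00305), Plk2 by 0.12 (adjusted p = 0.0103) and Spry4, an inhibitor of growth factor signalling, by 0.28 (adjusted p = 0.014), while Jund fell by 0.18 (adjusted p = 0.00465). Under fluoxetine 0 of the 31 were called by limma, with 4 at an unadjusted p under 0.05, and in males against females 0, with 3. Over all treatments, genotype gave 0 with 2. In limma 14.0%, 6.25% and 8.08% of all genes were at that level in these comparisons.

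Of 20 late response genes, which the induced factors switch on, 4 rose and 1 fell under lithium. Vgf, a secreted neuropeptide precursor, rose by 0.19 (adjusted p = 0.00043), Nptx1 by 0.20 (adjusted p = 0.000757) and Rasgrp1 by 0.15 (adjusted p = 0.00244), while Cort, a peptide of interneurons, fell by 0.33 (adjusted p = 0.00244). Npy, a peptide of interneurons, was the single one called for genotype (5%, where 0.152% of all genes were), where it fell by 0.18 in HT (adjusted p = 0.00113). Of 36 upstream regulators, 5 rose and 1 fell under lithium, among them the SRF coactivators Mrtfa (0.14, adjusted p = 7.8e-05) and Mrtfb (0.12, adjusted p = 0.000122), Mef2d (0.07, adjusted p = 0.00348) and Elk3, a ternary complex factor, which fell by 0.20 (adjusted p = 0.0092). Mrtfa also rose under fluoxetine, by 0.11 (adjusted p = 0.0299), the 1 of 36 called there (2.78%, where 0.928% of all genes were). Mapk3, a MAP kinase, rose in HT by 0.16 (adjusted p = 0.0016), the 1 of 36 called for genotype, where 0.152% of all genes were. The call shares under lithium were 25% of the late and 16.7% of the upstream genes, beside 16.2% of all genes. Vascular and microglial markers moved in the same comparison: 9 of 10 endothelial and pericyte markers were lower under lithium (median -0.12, 4 called lower and 1 higher), as were 8 of 8 microglia markers (median -0.09, 3 called). Their part in the list changes was not tested.

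Within the genotypes, 3 of the other rapid response genes rose under lithium in WT, Spry4 by 0.39 (adjusted p = 0.0405), Plk2 by 0.16 and Sgk1 by 0.25. None was called in HT, where 2 had an unadjusted p under 0.05 in limma, against 23.3% of all genes. Of the late response genes, Bdnf, a neurotrophin, rose in WT by 0.34 (adjusted p = 0.0371), as did Vgf (0.23), Rasgrp1 (0.20) and Nptx1 (0.24). In HT, Cort fell by 0.49 (adjusted p = 0.00291), Crh, corticotropin-releasing hormone, by 0.30 (adjusted p = 0.0418) and Nrn1 by 0.18 (adjusted p = 0.0483). Of the upstream regulators, Mrtfa, Mrtfb and Mef2d rose in WT, by 0.15, 0.12 and 0.08. In HT 5 rose and 3 fell, which is 22.2% of the list where 8.77% of all genes were called, with Ep300, a histone acetyltransferase that CREB recruits, at 0.15 (adjusted p = 0.00812), Mrtfb at 0.12, Mrtfa at 0.13 and Crebbp at 0.14 (adjusted p = 0.0159). Of all genes 5.71% were called in WT, beside 9.68% of the other rapid, 20% of the late and 8.33% of the upstream genes. In HT the shares of the first 2 lists were 0% and 15%. No gene was called in the genotype by lithium interaction, so a call in 1 genotype alone does not show that the genotypes differed.

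Fos deviations were also correlated with the mean deviations of 14 lists and with depth, 15 relations in all. The other rapid response genes followed Fos (r = 0.90, rho = 0.89, adjusted permutation p = 0.00015, and 0.89 without the 2 farthest libraries), as did the late response genes (0.52 and 0.54, adjusted p = 0.00045, and 0.48 without them) and the heat shock genes (0.47 and 0.45, adjusted p = 0.0077, and 0.44 without them). The remaining 12 did not pass, among them olfactory markers (0.33, adjusted p = 0.15), striatal markers (0.04), blood cell markers (-0.01) and depth (-0.12, adjusted p = 0.76). Of the 50 tested genes with the highest r with Fos, 18 were members and 8 were other rapid response genes. The 10 highest that are no members were Arl4d (0.90), Midn (0.88), Irf2bpl (0.86), Nab2 (0.83), a repressor of EGR factors, Per1 (0.83), a clock gene also induced by activity, Sertad1 (0.80), Stk40 (0.80), Map3k14 (0.79), Spry4 (0.78) and Klf10 (0.78), over 56 libraries and with no test.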

How the data were processed

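Per the labels' protocols, stranded mRNA libraries (TruSeq) were sequenced. The submitters' processing notes list genome build GRCm38 and DESeq2 1.19.11, Salmon 0.11.2 and R 3.6.0; filters and annotation are not given in the sources used here. The deposited values are a signal that the authors made by dividing reads by a size factor per library: in 53 libraries 100% of values were whole reads at a tolerance of 0.01 reads, and in 3 the step was too close to 1 for that check. Symbols were matched to 18077 of 18088 genes, and coordinates are GENCODE vM21.

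In R 4.3.3, limma 3.58.1 (variance trend, robust) was fitted to log2(value + 1) with 12 group means over 56 libraries, for 17778 genes with at least 10 in at least 4 libraries. Differences are on that scale, which understates low genes. The Benjamini-Hochberg adjustment ran over all genes tested, and a call needed an adjusted p below 0.05. Intervals are 95%. Nothing in the labels says that libraries of a group come from separate litters, so p-values measure the spread between these samples. Permutation p-values used 100000 draws and were adjusted over 30 members or 15 relations. The scripts were tested on simulated data.

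The members, lists and tests were chosen with earlier results of these data known. Genes named are called members, the smallest p in each other comparison, Fos, Fosb, Junb, Egr1, Arc, Npas4, Nr4a1, Dusp1, Homer1 and Nptx2, up to 4 called genes of each pathway list (marker lists are given as counts, medians, sums or correlations), and the 10 that follow Fos most closely; others are given where a sentence needs an example. Alternatives were TMM, edgeR 4.0.16 on recovered reads, no filter, pseudocounts of 0.5 and 5, only the groups compared, a replicate block, marker scores as covariates, and leaving out libraries.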

Additional observations from a re-analysis of the deposited data

Results flagged for a closer look

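In 17 named members, the 204 groups of 4 or 5 libraries were searched for a library whose gap to the nearest other exceeded Dixon's 95% critical value for the group's range. There were 10, and chance flags about 1 in 20. Fosb stood at 661 in HT fluoxetine male 5 (402 to 471 in the others) and at 555 in WT fluoxetine female 2 (350 to 378). Npas4 stood at 1023 in HT vehicle female 3 (598 to 711) and at 1106 in WT vehicle female 3 (753 to 848). HT lithium male 5 was high in both Nptx2, at 1888 (1389 to 1474), and Ptgs2, at 431 (293 to 333). Dusp1 was low in HT vehicle female 3, at 615 (814 to 855), and high in WT fluoxetine female 1, at 825 (420 to 487). Ier2 stood at 281 in HT lithium female 5 (160 to 194). Btg2 stood at 919 in WT fluoxetine male 1 (289 to 466), the library that also has the highest Ier2 value of the series. Marker scores of the olfactory bulb or the striatum were above 1 in HT fluoxetine male 5, WT fluoxetine female 2, HT vehicle female 3, WT vehicle female 3, HT lithium female 5 and WT fluoxetine male 1, and at or below 1 in the other 2 libraries. Their part in these values was not tested.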

How the results depend on the processing

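Members called kept within 1.5 times the reported number under all settings run except the following. In WT under fluoxetine 1 was called with marker scores as covariates (Npas4), and 0 to 2 when single libraries were left out: 1 without HT lithium female 1, HT vehicle female 3, WT fluoxetine female 1 or WT vehicle male 2, and 2 without WT fluoxetine male 1. For fluoxetine over both genotypes the covariates gave 2 (Ier2, Btg2) and single omissions 0 to 2: 2 without WT fluoxetine female 1, WT fluoxetine male 1 or WT vehicle female 4, and 1 without HT fluoxetine female 1, HT fluoxetine male 2 or 3, HT vehicle male 3, HT lithium male 1, or the WT vehicle libraries female 1 or male 2. Under lithium in WT, using only the groups compared gave 1 (Ptgs2). Over both genotypes this gave 2 (Ptgs2, Ier2), the covariates 2 (Ptgs2, Trib1), the fit without the 18 marker-rich libraries 0, and single omissions 1 to 2, with 2 without WT vehicle female 3. The difference with the smallest p in each comparison, and that of Btg2 under fluoxetine, kept its sign under each alternative run; other members were followed by counts. The members above 0 for fluoxetine over both genotypes numbered 9 in edgeR (12 as reported), and for genotype over all treatments 8 with the covariates and 6 without the 18 (12 as reported). For the genotype by lithium interaction they numbered 7 in edgeR, 2 with the covariates and 5 without the 18 (3 as reported). Fewer libraries and marker content cannot be told apart in the fit without those 18. All-gene counts also moved: without the 18 they fell to 0 (fluoxetine in WT, 26 with all libraries), 10 (fluoxetine over both, 165), 223 (lithium in WT, 1016), 561 (lithium in HT, 1560) and 1265 (lithium over both, 2872). With the covariates they were 66 and 321 for fluoxetine in WT and over both, and with only the groups compared 9 and 80. The 0.5 and 5 pseudocounts, TMM, no filter and edgeR left each member call as reported.

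With the replicate number as a block, 2 members were called for fluoxetine over both genotypes (Maff, Ier2), and 49 and 254 genes in all for fluoxetine in WT and over both. Libraries with the same number in the sample titles did not deviate together (median r -0.0016 over 292 pairs of libraries from other groups, -0.24 to 0.43), so the numbers are not used as pairs. For some WT fluoxetine and WT lithium females the library names carry other numbers than the titles. The block and this check were not run with those. The members above the median spread numbered 29 under each alternative run. Low genes, Maff and Atf3, are limited by depth.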

Other observations

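Klf6, a zinc finger factor on the list of other rapid response genes, went against Fos between libraries. Its r with the deviations of Fos was -0.74 over 56 libraries, the second lowest of all genes tested, while 29 of the 31 other rapid response genes had an r above 0. Sgk1 was the other below 0, at -0.07. Klf6 was chosen after its values were seen, and no test was run.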
